A study of Homo sapiens with 24 samples.

Results

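Matrix metalloproteinase (MMP) genes were followed across 2 clear cell renal cell carcinoma (ccRCC) lines with and without depletion of PAX8, a transcription factor of the renal lineage. The 10 genes described were taken by name: MMP1, MMP3, MMP7, MMP10, MMP12 and MMP13 lie together at 11q22, and MMP2, MMP9, MMP14 and MMP24 lie elsewhere. They are 10 of the 23 MMP genes searched, among 26475 genes listed in each library, and all 10 passed the filter on low counts, as did 15 of the 23 MMP genes and 15665 genes in all. The members were chosen by the expected counts of cluster genes, which differed between the depletion constructs in OS-LM1, so that difference is given here as a description without a test.

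Poly(A) RNA was sequenced from 24 libraries, 4 from each of 6 groups. The lines were 786-M1A and OS-LM1, metastatic derivatives of the ccRCC lines 786-O and OS-RC-2, grown in RPMI with serum. Each line carried the short hairpin construct shPAX8-1, the short hairpin construct shPAX8-2 or the control construct sgNTC18. The name of the control is that of a CRISPR guide and not of a hairpin, so depletion of PAX8 and the change of vector system cannot be told apart in any comparison with sgNTC18, and each line stands for itself alone. The labels number the 4 libraries of a group without saying whether they came from separate cultures, so p-values measure the spread between these libraries, which may be technical. The libraries held between 11634418.8 and 52059375.1 estimated counts, and 3 counts, taken as the limit of detection in a library, correspond to between 0.0626 and 0.249 CPM, the usual depth-scaled share of a library's counts. A gene is said to be above the limit in a comparison if any library on either side held more than 3 counts, so 1 side may lie below it. For the difference of responses between the lines, each line needed such a library. Levels below are CPM after TMM scaling unless TPM (the same share after division by transcript length) is named, and fold changes are on the log2 scale. A gene was called changed at a Benjamini-Hochberg adjusted p under 0.05 in edgeR's quasi-likelihood test, with the adjustment made over the 15665 genes tested.

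PAX8 itself checked the labels. In 786-M1A it stood at 341 ± 45 CPM with sgNTC18 (SD, n = 4), at 18.7 ± 4.3 CPM with shPAX8-1 and at 42.4 ± 2.4 CPM with shPAX8-2. In OS-LM1 it stood at 260 ± 15 CPM with sgNTC18, at 78.2 ± 13 CPM with shPAX8-1 and at 79.2 ± 14 CPM with shPAX8-2. The remaining PAX8 thus differed between the constructs in 786-M1A (2.26-fold lower with shPAX8-1, adjusted p = 6.26e-07) and was close to equal between them in OS-LM1. Of 9 renal epithelial and ccRCC markers, the keratin gene KRT18 and the renal cadherin gene CDH6 were present in every group. CDH6 nevertheless fell against sgNTC18, 7.31-fold with shPAX8-1 and 7.76-fold with shPAX8-2 in 786-M1A and 6.95-fold in OS-LM1 (mean of the hairpins). Of the 9 markers, PAX8 included, 8 were above the limit in 786-M1A, where 6 fell and 0 rose with each hairpin. In OS-LM1 4 of the 9 fell and 3 rose, among them EPCAM 66.9-fold and CA9 5.52-fold. Of all tested genes 34.6%, 31.5% and 35.1% fell in these 3 comparisons, and 34.9%, 30.8% and 34.2% rose. Markers also separated the lines: with sgNTC18, CA9 was 1225-fold higher and EPCAM 739-fold lower in OS-LM1 than in 786-M1A. The leukocyte marker PTPRC and the endothelial markers CDH5, VWF and PECAM1 had group means of at most 0.487 CPM. Of 3 fibroblast markers the 2 that passed the filter, COL1A1 and LUM, rose in every comparison with sgNTC18, and the summed level of the 3 in OS-LM1 lay between 14.8 and 19.8 CPM in the controls, between 91.4 and 113 CPM with shPAX8-1 and between 100 and 206 CPM with shPAX8-2. In 786-M1A that sum went from at most 5.34 CPM in the controls to at most 14.3 and 15.8 CPM with the hairpins, and DCN had a group mean of at most 0.711 CPM in either line. The summed level of the 3 leukocyte markers, carried by CD68, lay between 78.0 and 92.3 CPM in the OS-LM1 controls and between 193 and 361 CPM in the depleted libraries. The part of these genes in the results was not tested.

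MMPs are zinc-dependent endopeptidases that are made as inactive proenzymes and cut components of the extracellular matrix. MMP1 and MMP13 are collagenases, MMP3 and MMP10 stromelysins, MMP7 is matrilysin and MMP12 the macrophage metalloelastase. MMP2 and MMP9 are the gelatinases, and MMP14 and MMP24 are anchored in the membrane, where MMP14 activates proMMP2 together with the inhibitor TIMP2. Several genes of the 11q22 cluster are known to be induced by interleukin-1 and growth factors through AP-1, the dimer of FOS and JUN proteins.

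The hairpin guides are shown because they are the only designed difference between the depletion arms. They are given 5′ to 3′ with the seed, bases 2 to 8, in capitals.
shPAX8-1: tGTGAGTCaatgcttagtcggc
shPAX8-2: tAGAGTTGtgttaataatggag
All 22 bases of each guide paired with the canonical PAX8 transcript of the annotation. The site of shPAX8-1 lies at chr2:113241690-113241711 (hg38) in coding sequence of exon 7, and that of shPAX8-2 at chr2:113218122-113218143 in the 3′ UTR of exon 12. The site of shPAX8-1 was present in 10 of 14 annotated PAX8 transcripts and that of shPAX8-2 in 7 of 14.

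The 6 cluster members span 435.2 kb of chromosome 11 (GRCh38, 102520508 to 102955732), all on the minus strand in the order MMP7, MMP10, MMP1, MMP3, MMP12, MMP13. MMP7 ends at 102530747 and MMP10 starts at 102770502. The positions of the 13 other MMP genes, of which 5 passed the filter, were not looked up, so some may lie within this span. Among the other members, MMP14 lies on chromosome 14 (22836585 to 22847758), MMP2 on chromosome 16 (55478830 to 55506691), and MMP24 (35226690 to 35276998) and MMP9 (46008908 to 46016561) on chromosome 20, all 4 on the plus strand. RefSeq promoter sequence (GRCh38.p14) was at hand for 4 of the 10 members, MMP7, MMP10, MMP14 and MMP24. The 150 bases before the start sites of MMP7 and MMP10 are shown because these cluster members moved in opposite directions with shPAX8-1 in OS-LM1. Capitals mark matches to the AP-1 motif TGANTCA and to the TATA motif TATAAA, each searched on both strands.
MMP7: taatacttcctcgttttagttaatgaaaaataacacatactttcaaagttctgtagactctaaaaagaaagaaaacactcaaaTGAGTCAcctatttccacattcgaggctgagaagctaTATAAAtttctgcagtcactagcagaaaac
MMP10: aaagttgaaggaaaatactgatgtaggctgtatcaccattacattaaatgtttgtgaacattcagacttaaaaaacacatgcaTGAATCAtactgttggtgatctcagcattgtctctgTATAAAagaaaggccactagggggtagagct
The MMP7 sequence is chr11:102530748-102530897 and the MMP10 sequence chr11:102780629-102780778, both read from the minus strand. Both promoters hold an AP-1 match from base -67 to base -61 and a TATA match, starting at base -30 in MMP7 and at base -31 in MMP10. The 250 bases before the start sites of MMP14 and MMP24 hold neither motif, and their last 150 bases are richer in G and C (54.0% and 88.0%, against 32.7% for MMP7 and 36.7% for MMP10). Over all 35116 promoters of the table, 6.57% hold the AP-1 motif and 10.7% the TATA motif in those 250 bases.

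The first question was which members the lines expressed without depletion. In 786-M1A with sgNTC18 the highest level per length was that of MMP2, at 453 ± 4.9 TPM (SD, n = 4), followed by MMP14 at 151 ± 8.1 TPM and MMP24 at 12.9 ± 1.1 TPM. MMP1 (8.46 ± 0.86 TPM) and MMP13 (8.32 ± 1.9 TPM) did not differ beyond their spread, and MMP7 stood at 6.01 ± 0.81 TPM. In OS-LM1 with sgNTC18 the order began with MMP7 at 134 ± 14 TPM, followed by MMP14 at 94.2 ± 6.5 TPM, MMP24 at 32.0 ± 4.3 TPM and MMP2 at 22.1 ± 1.9 TPM. The gelatinase MMP2 thus led in one line and the matrilysin MMP7 in the other. MMP12 was at 0 counts in all 12 libraries of 786-M1A, which allows up to 3 counts in each, and at 1 count in the 4 control libraries of OS-LM1 together.

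Of the 9 members above the detection limit, 7 differed between the lines in the sgNTC18 libraries, 3 higher and 4 lower in OS-LM1, where 63.0% of all tested genes passed the same test (32.0% higher). MMP7 was 23.7-fold higher in OS-LM1 (log2 4.56 ± 0.18, SE; adjusted p = 1.13e-17), and MMP24 2.63-fold higher (adjusted p = 6.96e-10). MMP3 was higher as well, at 0.643 ± 0.16 CPM against 3 counts in the 4 libraries of 786-M1A together. MMP13 was 42.2-fold lower in OS-LM1 (log2 -5.40 ± 0.27, adjusted p = 7.44e-16), MMP2 19.4-fold lower (log2 -4.28 ± 0.13, adjusted p = 2.88e-20), MMP1 3.84-fold lower and MMP14 1.52-fold lower. MMP9 (log2 0.73, 95% interval -0.12 to 1.57) and MMP10 (log2 -0.48, 95% interval -2.11 to 1.14) were not called. MMP9 was called with the GC trend removed (1.14, adjusted p = 0.00914) and without replicate 2 of sgNTC18 in 786-M1A (1.04, adjusted p = 0.0478).

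The difference between the hairpins in OS-LM1, which chose the list, was seen, among the cluster genes, in MMP1, MMP3, MMP10, MMP12 and MMP13. The stromelysin gene MMP3 stood at 371, 394, 360 and 359 CPM in the 4 shPAX8-1 libraries and at 24.8, 29.8, 26.2 and 30.4 CPM in the 4 shPAX8-2 libraries, against 0.451, 0.850, 0.640 and 0.632 CPM with sgNTC18. The 3 groups did not overlap, and the shPAX8-1 mean was 13.3 times the shPAX8-2 mean. The collagenase gene MMP1 stood at 111, 89.2, 139 and 92.9 CPM with shPAX8-1 and at 2.94, 3.81, 3.55 and 3.04 CPM with shPAX8-2, against 2.23, 2.02, 2.75 and 2.62 CPM with sgNTC18. With shPAX8-2 MMP1 thus stood 1.39 times above its control, and with shPAX8-1 44.8 times.

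The elastase gene MMP12 gave the widest gap of the members. It had 942, 605, 1189 and 1137 counts with shPAX8-1 and 1, 8, 9 and 11 counts with shPAX8-2, and 3 of the 4 sgNTC18 libraries had none. Summed counts, scaled by library size, gave a ratio of 162 between the hairpins (95% exact interval 113 to 243, counting error only), and of 36.5 between shPAX8-2 and sgNTC18 (6.05 to 1491), the latter resting on a single control count. MMP12 ranked number 2 of the 15665 tested genes in fold change toward shPAX8-1.

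The collagenase gene MMP13 stood at 5.15, 4.76, 3.41 and 3.72 CPM with shPAX8-1 and at 0.560, 0.478, 0.501 and 0.448 CPM with shPAX8-2, against 0.197, 0.439, 0.278 and 0.211 CPM with sgNTC18. No library of one hairpin reached the range of the other, and the means differed 8.58 times. The stromelysin gene MMP10 stood at 3.11, 2.74, 1.94 and 1.87 CPM with shPAX8-1 and at 0.0903, 0.0645, 0.0213 and 0.134 CPM with shPAX8-2, the latter at 8 counts in all and within the range of sgNTC18 (0 to 0.211 CPM). MMP10 and MMP3 are near-identical in places, and this limits the MMP10 value: 7.11% of the 31-base words of MMP10 transcripts also occur in MMP3, the only such pair among the members. The 213 counts of MMP10 with shPAX8-1 were 0.637% of the 33506 counts of MMP3 in the same libraries. The authors' counting divides shared reads by an estimate, so MMP10 is uncertain there.

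MMP7, at the end of the same cluster, showed no such gap. It stood at 1.75, 1.48, 1.97 and 2.66 CPM with shPAX8-1 and at 1.68, 2.09, 1.46 and 2.79 CPM with shPAX8-2, so the groups overlapped throughout. Outside the cluster MMP2 (41.6 ± 4.6 and 33.9 ± 4.3 CPM) and MMP14 (292 ± 22 and 309 ± 41 CPM) overlapped between the hairpins, and MMP9 had 2 counts in the 4 libraries of shPAX8-1 and 3 in those of shPAX8-2. The membrane-type gene MMP24 went the other way, at 16.5, 21.7, 19.4 and 19.9 CPM with shPAX8-1 and 38.7, 36.7, 51.3 and 41.5 CPM with shPAX8-2, without overlap. Among all tested genes 24.2% did not overlap between these groups, 12.0% higher and 12.1% lower with shPAX8-1, and 32 genes (0.204%) were at least 3 log2 units higher with shPAX8-1. The 5 cluster members that did not overlap were among those 32, at ranks 2 (MMP12), 7 (MMP10), 8 (MMP1), 17 (MMP3) and 31 (MMP13), which the choice of members fixed.

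**Figure D1:**
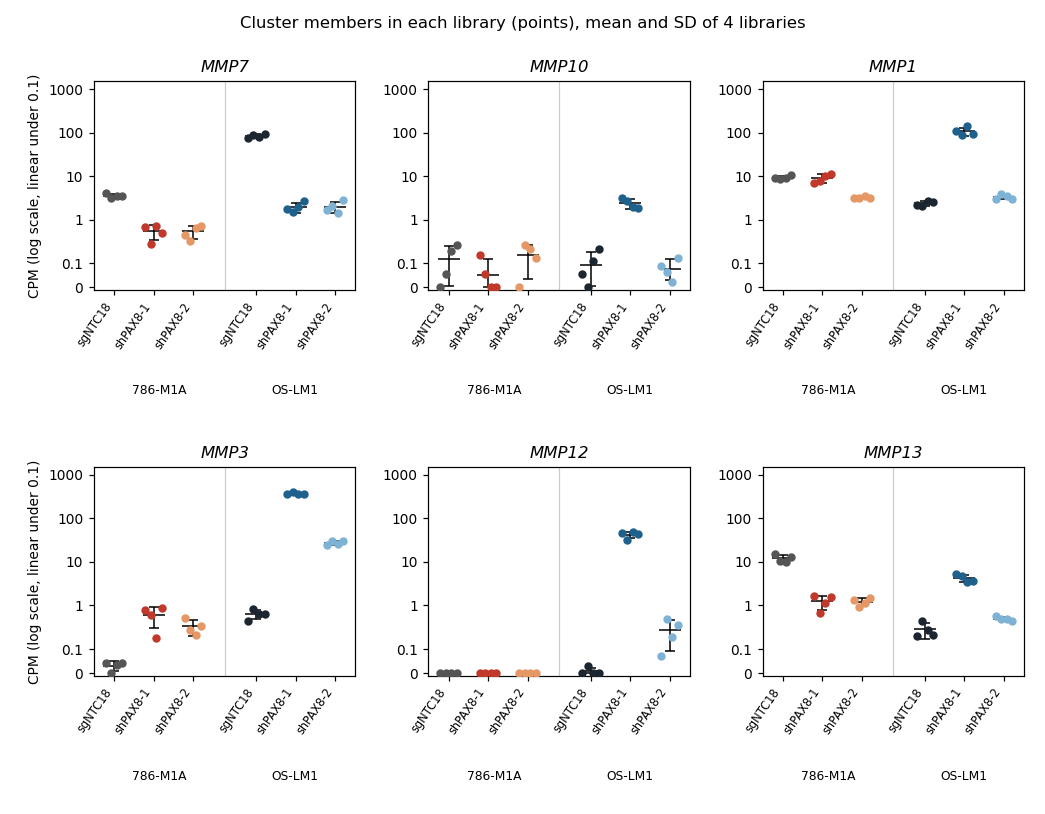
Level of each cluster member in each library, in CPM after TMM scaling on an axis that is logarithmic above 0.1 and linear below. Points are libraries, and bars give the mean and SD of the 4 libraries of a group. In OS-LM1 MMP3 ran from 359 to 394 CPM with shPAX8-1 and from 24.8 to 30.4 CPM with shPAX8-2, while MMP7 fell alike with both hairpins and MMP12 was at 0 in 786-M1A.

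The hairpins were tested against each other in 786-M1A, whose libraries the rule for the members did not use, although earlier results of these data were known. There 5 of the 9 members above the detection limit differed, 2 higher and 3 lower with shPAX8-1, where 48.1% of all tested genes were called (24.9% higher, 23.2% lower). In the cluster only MMP1 and MMP3 were called, of 5 members above the limit. MMP1 stood at 7.11, 7.63, 10.1 and 11.2 CPM with shPAX8-1 and at 3.18, 3.24, 3.56 and 3.20 CPM with shPAX8-2. Every shPAX8-1 library was above every shPAX8-2 library, and MMP1 was 2.73-fold higher (log2 1.45 ± 0.17, adjusted p = 2.26e-07). MMP3 was 1.87-fold higher (log2 0.90 ± 0.37, adjusted p = 0.0447) at a low level, with 0.784, 0.605, 0.181 and 0.884 CPM against 0.512, 0.270, 0.206 and 0.333 CPM, and these ranges overlap. Its call was lost in 6 of the 8 fits that left out 1 library (log2 0.70 and adjusted p = 0.168 without replicate 4 of shPAX8-1).

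MMP7 (log2 0.03, 95% interval -0.73 to 0.78) and MMP13 (log2 0.01, 95% interval -0.55 to 0.58) were not called between the hairpins in 786-M1A, and MMP10 was at 0 to 0.270 CPM there. Outside the cluster MMP24 stood at 4.71, 3.92, 2.94 and 2.74 CPM with shPAX8-1 and at 20.1, 23.2, 21.8 and 21.5 CPM with shPAX8-2. It was thus 6.01-fold lower with shPAX8-1 (log2 -2.59 ± 0.16, adjusted p = 2.98e-12), and it was the lower one with shPAX8-1 in both lines. MMP2 stood at 787, 598, 567 and 533 CPM with shPAX8-1 and at 1356, 1290, 1094 and 1176 CPM with shPAX8-2, without overlap and 1.98-fold lower (log2 -0.98 ± 0.11, adjusted p = 1.67e-07). MMP14 was 1.23-fold lower (log2 -0.29 ± 0.11, adjusted p = 0.0351), a call that was lost in 4 of the 8 fits without 1 library and turned to log2 0.12 (adjusted p = 0.221) once a trend of fold change with GC content was removed. Across genes, fold changes of this comparison fell with GC content (Spearman's rho -0.53, genes not being independent replicates).

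The next comparisons asked what the members did when PAX8 was depleted in 786-M1A. Of 9 members above the limit, 7 were called with shPAX8-1 against sgNTC18, 3 higher and 4 lower, where 69.5% of all tested genes were called (34.9% higher, 34.6% lower). With shPAX8-2 8 were called, 4 higher and 4 lower, where 62.4% of all tested genes were called (30.8% higher, 31.5% lower). These comparisons share their 4 control libraries. The shPAX8-1 libraries of 786-M1A stood apart in pairs, with a chi-square per gene of 14.1 between replicates 1 and 2 and 3.72 between 3 and 4, but 44.9 to 77.7 across the pairs. Replicates also stood apart in OS-LM1 with shPAX8-2, at 91.4 between 3 and 4 and 60.6 between 2 and 3. That group held 14567944.7 to 52059375.1 counts per library, and the value grows with depth, so it does not rank the groups. MMP3, MMP9 and MMP14 rose with each hairpin, MMP7, MMP13 and MMP24 fell with each, and MMP1 and MMP2 depended on the hairpin.

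The collagenase gene MMP13 fell from 15.0, 10.3, 9.87 and 13.1 CPM with sgNTC18 to 1.62, 0.659, 1.14 and 1.55 CPM with shPAX8-1 and to 1.37, 0.917, 1.16 and 1.47 CPM with shPAX8-2. Its groups did not overlap, with folds of 9.76 (log2 -3.29 ± 0.23, adjusted p = 2.29e-12) and 9.85 (log2 -3.30 ± 0.24, adjusted p = 6.51e-12). The matrilysin gene MMP7 fell from 4.03, 3.21, 3.43 and 3.47 CPM to 0.680, 0.283, 0.722 and 0.497 CPM and to 0.455, 0.324, 0.663 and 0.733 CPM. It was 6.56-fold lower with shPAX8-1 (adjusted p = 4.72e-10) and 6.68-fold lower with shPAX8-2 (adjusted p = 1.65e-09). MMP24 fell from 27.6, 32.0, 33.4 and 27.4 CPM, by 8.36-fold with shPAX8-1 and by 1.39-fold with shPAX8-2 (adjusted p = 2.66e-15 and 0.00331).

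The gelatinase gene MMP9 rose from 0.246, 0.498, 0.259 and 0.176 CPM with sgNTC18 to 3.03, 2.21, 1.57 and 2.26 CPM with shPAX8-1 and to 4.44, 3.61, 1.91 and 3.40 CPM with shPAX8-2. That is 7.84-fold (log2 2.97 ± 0.38, adjusted p = 1.38e-07) and 11.6-fold (log2 3.54 ± 0.38, adjusted p = 1.01e-08), each without overlap with the control. MMP14 rose from 286, 293, 316 and 277 CPM to 777, 685, 548 and 523 CPM and to 843, 864, 688 and 710 CPM. Every library of either hairpin was above every control, with folds of 2.16 (adjusted p = 2.84e-09) and 2.65 (adjusted p = 7.5e-11). MMP3 rose from 3 counts in the 4 control libraries to 47 with shPAX8-1, a ratio of 20.1 with an exact 95% interval of 6.46 to 101, and to 21 with shPAX8-2, a ratio of 10.6 with an interval of 3.18 to 55.8.

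MMP1 was at 8.87, 8.46, 9.16 and 10.5 CPM with sgNTC18, which its shPAX8-1 libraries overlapped (log2 -0.05, 95% interval -0.35 to 0.26, adjusted p = 0.806), though with the GC trend removed MMP1 was called lower there too (log2 -0.32, adjusted p = 0.0208). With shPAX8-2 it was 2.82-fold lower without overlap (log2 -1.49 ± 0.17, adjusted p = 1.86e-08). MMP2 was at 738, 785, 810 and 790 CPM with sgNTC18, and rose 1.57-fold with shPAX8-2 (adjusted p = 1.39e-05). With shPAX8-1 MMP2 was called 1.26-fold lower (adjusted p = 0.0107) although its ranges overlapped, since replicate 1 of shPAX8-1 stood at 787 CPM and the other 3 at 533 to 598 CPM, and the call was lost without replicate 3 (adjusted p = 0.07) and with replicates 1 and 2 alone (log2 -0.14, adjusted p = 0.347), and turned to log2 0.041 (adjusted p = 0.644) with the GC trend removed. MMP10 was not called with either hairpin, at 13, 4.17 and 9.51 counts in the 3 groups of 4 libraries.

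**Figure D2:**
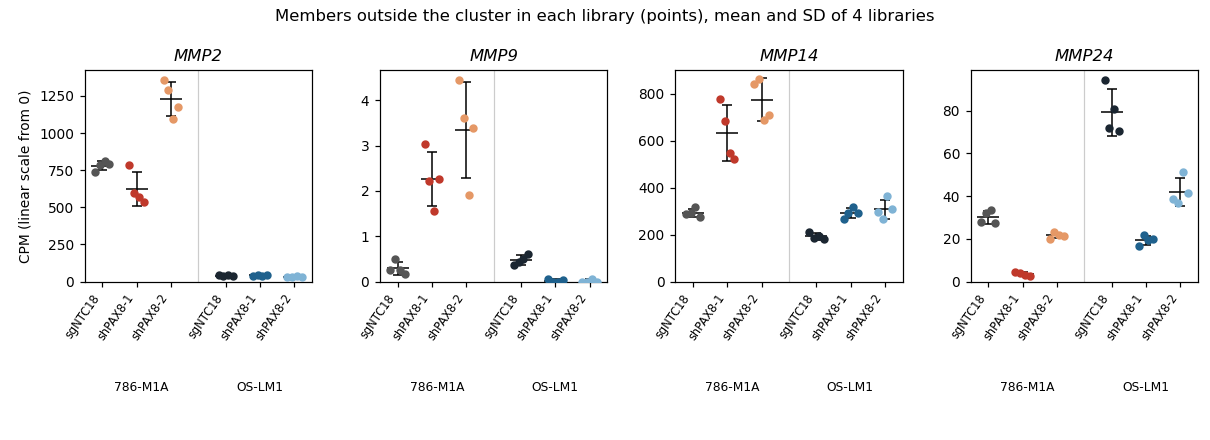
Level of the members outside the cluster in each library, in CPM after TMM scaling on a linear axis from 0. Points are libraries, and bars give the mean and SD of the 4 libraries of a group. MMP9 rose with both hairpins in 786-M1A and stood at 0 to 0.0626 CPM with them in OS-LM1, and MMP24 was lower with shPAX8-1 than with shPAX8-2 in both lines.

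In OS-LM1 the mean of both hairpins was compared with sgNTC18, and this mean includes the shPAX8-1 libraries that set the cluster apart. All 10 members were above the limit and 9 were past the threshold, 6 higher and 3 lower, where 69.3% of all tested genes were called (34.2% higher, 35.1% lower). Of the 6 higher ones 5 were MMP1, MMP3, MMP10, MMP12 and MMP13, whose shPAX8-1 values chose the list, so their values are a description and no p is given for them. MMP10 and MMP12 also passed the filter on low counts through the shPAX8-1 libraries of OS-LM1 alone. The matrilysin gene MMP7 fell from 74.6, 86.6, 80.4 and 93.9 CPM with sgNTC18 to between 1.46 and 2.79 CPM in the 8 depleted libraries. It was 41.9-fold lower (log2 -5.39 ± 0.15, adjusted p = 8.62e-21) and stood at like levels with each hairpin, 42.7 times below the control with shPAX8-1 and 41.9 times with shPAX8-2. MMP24 fell from 94.2, 71.6, 80.7 and 70.3 CPM, 2.77-fold on average (log2 -1.47 ± 0.11, adjusted p = 4.62e-12), and its depleted libraries, at 16.5 to 51.3 CPM, were all below the controls. MMP9 fell from 13, 15, 18 and 20 counts to 5 counts in the 8 depleted libraries together, a ratio of 19.1 for control over depleted with an exact 95% interval of 7.79 to 60.8. The fitted fold change of MMP9 (log2 -4.04, adjusted p = 5.3e-08) depends on the prior count at such counts.

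MMP14 rose, and went from 212, 184, 195 and 181 CPM to between 266 and 365 CPM, without overlap and 1.56-fold higher (log2 0.64 ± 0.10, adjusted p = 3.73e-06). The mean of the hairpins stood 157-fold above the control for MMP3 (log2 7.29 ± 0.18), 7.89-fold for MMP1 (log2 2.98 ± 0.15) and 5.07-fold for MMP13 (log2 2.34 ± 0.27). For MMP3 each hairpin by itself stood far above the control, 577 times with shPAX8-1 and 43.2 times with shPAX8-2. For MMP1 and MMP13 shPAX8-2 stood at 1.39 and 1.76 times the control, against 44.8 and 15.1 times for shPAX8-1. MMP10 stood at 25.5 times the control with shPAX8-1 and at 0.817 times with shPAX8-2. MMP2 was not called, with a log2 change of -0.10 (95% interval -0.30 to 0.11) that turned to 0.19 (adjusted p = 0.0129) with the GC trend removed.

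**Figure D3:**
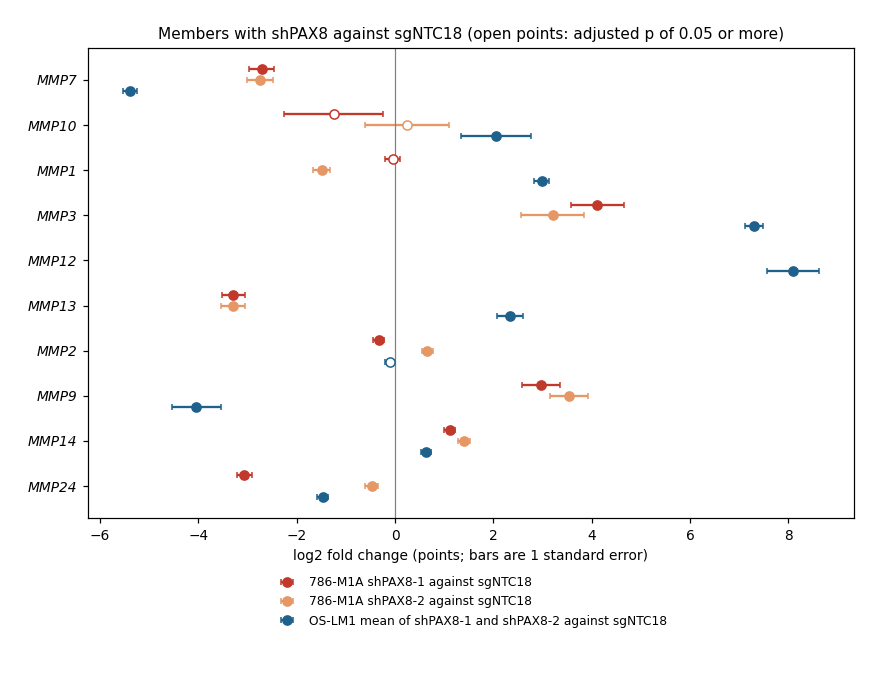
Log2 fold change of each member with shPAX8 against sgNTC18 (points), with 1 standard error from edgeR (bars), for each hairpin in 786-M1A and for the mean of both in OS-LM1. Open points were not called at an adjusted p of 0.05, filled points of MMP1, MMP3, MMP10, MMP12 and MMP13 in OS-LM1 are no test since the values chose the list, and MMP12 has no point in 786-M1A, where it was at 0. MMP7 lies between -5.39 and -2.71 in all 3 comparisons, while MMP13 and MMP9 lie on opposite sides of 0 in the lines.

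The members' response to depletion was then compared between the lines by the interaction term of the same fit. Of 9 members 7 were past the threshold, where 58.7% of all tested genes did. Of the 7, 4 responses were higher and 3 lower in OS-LM1, against 29.9% and 28.8% of all tested genes. The 4 higher ones, MMP1, MMP3, MMP10 and MMP13, hold the OS-LM1 shPAX8-1 values that chose the list and are given as a description without a p. The response of MMP13 was 5.64 log2 units higher in OS-LM1 than in 786-M1A (± 0.33), that of MMP1 3.75 higher (± 0.20) and that of MMP3 3.63 higher (± 1.18). That of MMP10 was 2.56 higher (± 1.07) and left the threshold in 14 of the 24 fits without 1 library. MMP9 responded in opposite directions, with a fitted difference of -7.29 (adjusted p = 9.68e-11) that depends on the prior count. MMP7 fell in both lines and further in OS-LM1 (difference -2.66 ± 0.29, adjusted p = 1.5e-08), and MMP14 rose in both and less in OS-LM1 (-0.62 ± 0.14, adjusted p = 0.000466). MMP24 (0.30, 95% interval -0.04 to 0.64) and MMP2 (-0.26, 95% interval -0.54 to 0.03) were not called, but each was called in some alternative fits. MMP24 was called with the GC trend removed (0.40, adjusted p = 0.00305). The same held with replicates 3 and 4 alone of shPAX8-1 in 786-M1A (0.43, adjusted p = 0.0191) and without its replicate 1 (0.38, adjusted p = 0.0398). MMP2 was called with replicates 1 and 2 alone of that group (-0.38, adjusted p = 0.0143) and without replicate 3 of shPAX8-2 in 786-M1A (-0.33, adjusted p = 0.0487). PAX8 itself fell further in 786-M1A (difference 1.87 ± 0.17, adjusted p = 7.53e-10), and the part of that in these differences was not tested.

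After depletion the order of levels in the lines was no longer the same. In OS-LM1 with shPAX8-1 MMP3 led at 366 ± 44 TPM (SD, n = 4), followed by MMP14 at 145 ± 19 TPM, MMP1 at 94.9 ± 22 TPM, MMP12 at 40.1 ± 5.3 TPM and MMP2 at 23.5 ± 4.2 TPM, with MMP24 at 7.99 ± 1.4 TPM. MMP7 (3.16 ± 0.63 TPM), MMP13 (2.81 ± 0.62 TPM) and MMP10 (2.48 ± 0.68 TPM) came last before MMP9 and lay within each other's spread. With shPAX8-2 the order began instead with MMP14 at 147 ± 19 TPM, MMP3 at 26.2 ± 1.7 TPM, MMP2 at 18.3 ± 2.3 TPM and MMP24 at 16.6 ± 2.4 TPM. In 786-M1A MMP2 and MMP14 stayed first and second, at 334 ± 63 and 303 ± 61 TPM with shPAX8-1, which overlap in spread, and at 653 ± 68 and 368 ± 45 TPM with shPAX8-2. Between the depleted lines 9 of 10 members differed, 6 higher and 3 lower in OS-LM1, where 83.1% of all tested genes did (41.7% higher, 41.5% lower). Among the 6 higher ones MMP1, MMP3, MMP10 and MMP12 again hold the values that chose the list. MMP2 (23.2-fold, adjusted p = 1.34e-24), MMP14 (2.33-fold, adjusted p = 1.54e-13) and MMP9 were the members lower in OS-LM1. MMP13 was not past the threshold (log2 0.23), but it too holds values that chose the list, so this is a description. The mean of the hairpins also hides a split of MMP13 in OS-LM1, at 4.26 ± 0.83 CPM with shPAX8-1 and 0.497 ± 0.047 CPM with shPAX8-2. In 786-M1A MMP13 stood at 1.24 ± 0.44 and 1.23 ± 0.24 CPM.

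Genes beside the cluster were compared in the same way. Of 13 genes listed beside the cluster 8 passed the filter, and in OS-LM1 their differences between the hairpins ran from log2 -0.06 (TMEM123) to 0.98 (BIRC3, an inhibitor of apoptosis induced by NF-kB signals), against 3.10 to 7.28 for MMP10, MMP1, MMP3, MMP12 and MMP13. DCUN1D5, next to MMP13, stood at 0.04, and TMEM123 lies next to MMP7, itself at -0.01. In 786-M1A 5 of the 8 were called higher with shPAX8-1 and none lower, where 48.1% of all tested genes were called (24.9% higher, 23.2% lower), with BIRC3 at log2 2.26 ± 0.19 (adjusted p = 7.74e-10) and BIRC2 at 0.79 ± 0.14 (adjusted p = 7.34e-05). BIRC3 was thus further apart between the hairpins than MMP1 in 786-M1A and less far in OS-LM1. Genes annotated on the opposite strand overlap MMP1, MMP3, MMP10, MMP2, MMP9 and MMP24. WTAPP1, a pseudogene that covers MMP10 and MMP1 and reaches MMP3, had 123.95 counts in the 4 shPAX8-1 libraries of OS-LM1 and 32.12 in the 4 shPAX8-2 libraries. The antisense gene MMP24-AS1 had 114 ± 21, 44.7 ± 11 and 82.5 ± 10 CPM of the unscaled library total in 786-M1A with sgNTC18, shPAX8-1 and shPAX8-2, falling alongside MMP24, but 92.6 ± 7.5, 97.1 ± 19 and 95.1 ± 18 in OS-LM1, where MMP24 fell. Whether counting used strand is not given in the sources used here, so reads of the 2 strands cannot be told apart and these 6 members are uncertain to that degree.

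**Figure D4:**
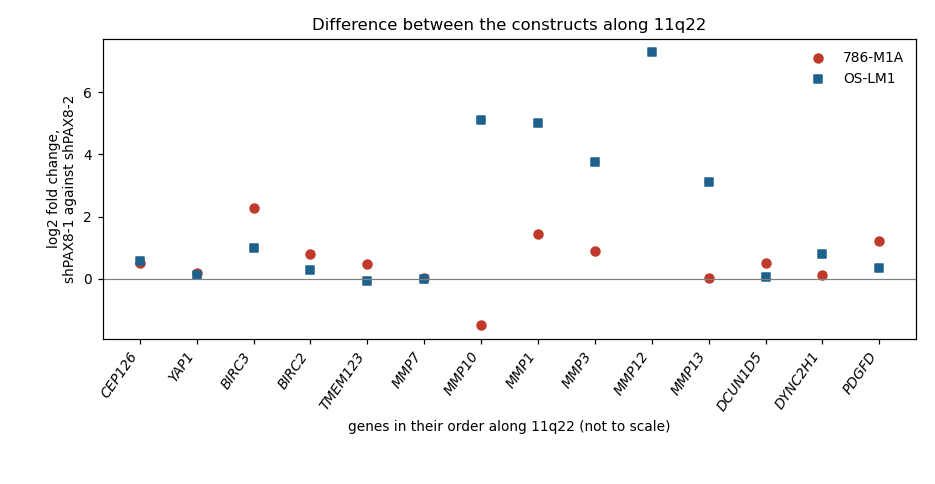
Log2 fold change between shPAX8-1 and shPAX8-2 for the 14 tested genes at 11q22, placed in gene order and not to scale, in 786-M1A (circles) and OS-LM1 (squares). In OS-LM1 MMP10, MMP1, MMP3, MMP12 and MMP13 lie between 3.10 and 7.28, and the 8 genes beside the cluster and MMP7 lie between -0.06 and 0.98.

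Inhibitors of the enzymes changed as well. TIMP2, which binds MMP2 and MMP14, rose in both lines: from 321 ± 17 CPM to 637 ± 53 and 528 ± 14 CPM in 786-M1A, and from 39.7 ± 6.5 CPM to 168 ± 3.4 and 126 ± 1.2 CPM in OS-LM1 (log2 1.87 ± 0.09, adjusted p = 2.45e-16). The membrane-bound inhibitor RECK rose too, 1.61 ± 0.11 log2 units in OS-LM1 (adjusted p = 4.43e-13). TIMP1, the inhibitor of most secreted MMPs, fell in OS-LM1 from 657 ± 41 CPM to 320 ± 73 and 331 ± 52 CPM (log2 -1.01 ± 0.12, adjusted p = 6.62e-08), but in 786-M1A rose with shPAX8-2 (log2 0.69 ± 0.15, adjusted p = 0.00025) and was not called with shPAX8-1. A2M, a trap for many proteases, rose in OS-LM1 from 2.28 ± 0.38 CPM to 54.1 ± 5.3 and 51.3 ± 3.5 CPM and was at 0 in all 12 libraries of 786-M1A. TIMP3 was at 0 in 786-M1A and at most 1.28 CPM in OS-LM1, and TIMP4 at most 0.275 CPM. In OS-LM1 3 of the 5 inhibitors that passed the filter rose and 1 fell, where 69.3% of all tested genes were called, and the libraries of the hairpins overlapped there for TIMP1 and A2M.

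Of the 7 genes of proenzyme activation, 5 rose and 1 fell with each hairpin in 786-M1A and likewise in OS-LM1, with medians of log2 1.39, 1.17 and 1.08 against 0.01, 0.01 and -0.01 over all tested genes. In the same comparisons 69.5%, 62.4% and 69.3% of all tested genes were called (34.9%, 30.8% and 34.2% higher). PLG, the source of plasmin, which activates several proMMPs, rose in OS-LM1 from 0.519 ± 0.11 CPM to 14.7 ± 1.8 and 14.5 ± 2.0 CPM (log2 4.82 ± 0.24, adjusted p = 1.36e-15) and was at most 0.169 CPM in any library of 786-M1A. PLAU, the urokinase gene, rose in OS-LM1 from 22.2 ± 2.8 CPM to 149 ± 5.4 and 132 ± 15 CPM (log2 2.66 ± 0.10, adjusted p = 1.5e-18). FURIN, whose product activates membrane-type MMPs within the cell, fell in 786-M1A from 109 ± 15 CPM to 19.2 ± 4.8 CPM with shPAX8-1 (log2 -2.50 ± 0.14, adjusted p = 3.08e-14). With shPAX8-2 FURIN stood at 76.0 ± 1.8 CPM there. In OS-LM1 it stood at 69.3 ± 8.2 CPM with sgNTC18, 46.6 ± 3.9 CPM with shPAX8-1 and 91.6 ± 14 CPM with shPAX8-2, so its change depended on hairpin and line. Among the 13 other MMP genes 5 passed the filter, and MMP19 and MMP11 rose in both lines. MMP19 went from 0.288 ± 0.21 CPM to 2.05 ± 0.46 and 7.30 ± 1.3 CPM in 786-M1A and from 8.56 ± 0.41 CPM to 19.7 ± 2.5 and 18.8 ± 2.0 CPM in OS-LM1.

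Signals and factors known to induce the cluster were compared in the same fit. IL1B, which encodes interleukin-1 beta, rose in OS-LM1 from 0.268 ± 0.069 CPM to 103 ± 13 CPM with shPAX8-1 and 39.3 ± 4.1 CPM with shPAX8-2 (log2 7.87 ± 0.25, adjusted p = 1.1e-19), and in 786-M1A from 0.104 ± 0.145 CPM to 20.9 ± 2.3 and 4.16 ± 0.70 CPM. Between the hairpins of 786-M1A, shPAX8-1 gave the higher IL1B level (log2 2.31 ± 0.19, adjusted p = 6.86e-10), and also the higher levels of IL1A (2.76 ± 0.48, adjusted p = 4.78e-05) and of the AP-1 gene FOSB (1.51 ± 0.23, adjusted p = 7.18e-06). BSG, which encodes an inducer of MMPs at the cell surface, was lower with shPAX8-1 there (-2.02 ± 0.12, adjusted p = 1.37e-12), as was the AP-1 gene JUNB (-0.79 ± 0.19, adjusted p = 0.0015). In all, 3 of the inducing signals were higher and 3 lower, where 24.9% of all tested genes were higher and 23.2% lower. In OS-LM1 the shPAX8-1 libraries of IL1B (86.5 to 116 CPM) lay above those of shPAX8-2 (33.3 to 42.9 CPM), and IL1A stood at 21.9 ± 3.4 against 7.68 ± 1.4 CPM. Of the 10 inducing signals 9 passed the filter and 6 rose and 2 fell in OS-LM1, and of the 15 AP-1, ETS and RUNX factors 14 passed and 10 rose and 2 fell, with medians of log2 1.12 and 0.79 against -0.01 over all tested genes, of which 34.2% rose and 35.1% fell. In 786-M1A 4 of the inducing signals rose and 4 fell with shPAX8-1, where 34.9% of all tested genes rose and 34.6% fell. With shPAX8-2 3 rose and 3 fell, where 30.8% of all tested genes rose and 31.5% fell. Among those that fell with shPAX8-2 were IL6 (log2 -1.73 ± 0.16, adjusted p = 1.01e-09) and TNF (-1.68 ± 0.21, adjusted p = 1.65e-07). The 14 factors leaned upward in 786-M1A as they did in OS-LM1. With shPAX8-1 9 rose and 2 fell (median log2 0.66), and with shPAX8-2 8 rose and 1 fell (median 0.45). The median over all tested genes was 0.01 with each hairpin there. Between the hairpins in OS-LM1, 2 inducing signals were higher with shPAX8-1 and 7 lower (median -0.45). Of the factors 5 were higher and 9 lower (median -0.08). Of the genes named above for 786-M1A, IL1A stood at 1.52, IL1B at 1.39 and FOSB at 0.91. JUNB went the other way, at 55.7 ± 11 CPM with shPAX8-1 and 90.2 ± 18 CPM with shPAX8-2. The median of the 6 cluster members, which the choice of members used, was 4.37. The part of these genes in the levels of the MMPs was not tested. These are sums over cells in culture, in which fewer expressing cells and less RNA per cell cannot be told apart.

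**Figure D5:**
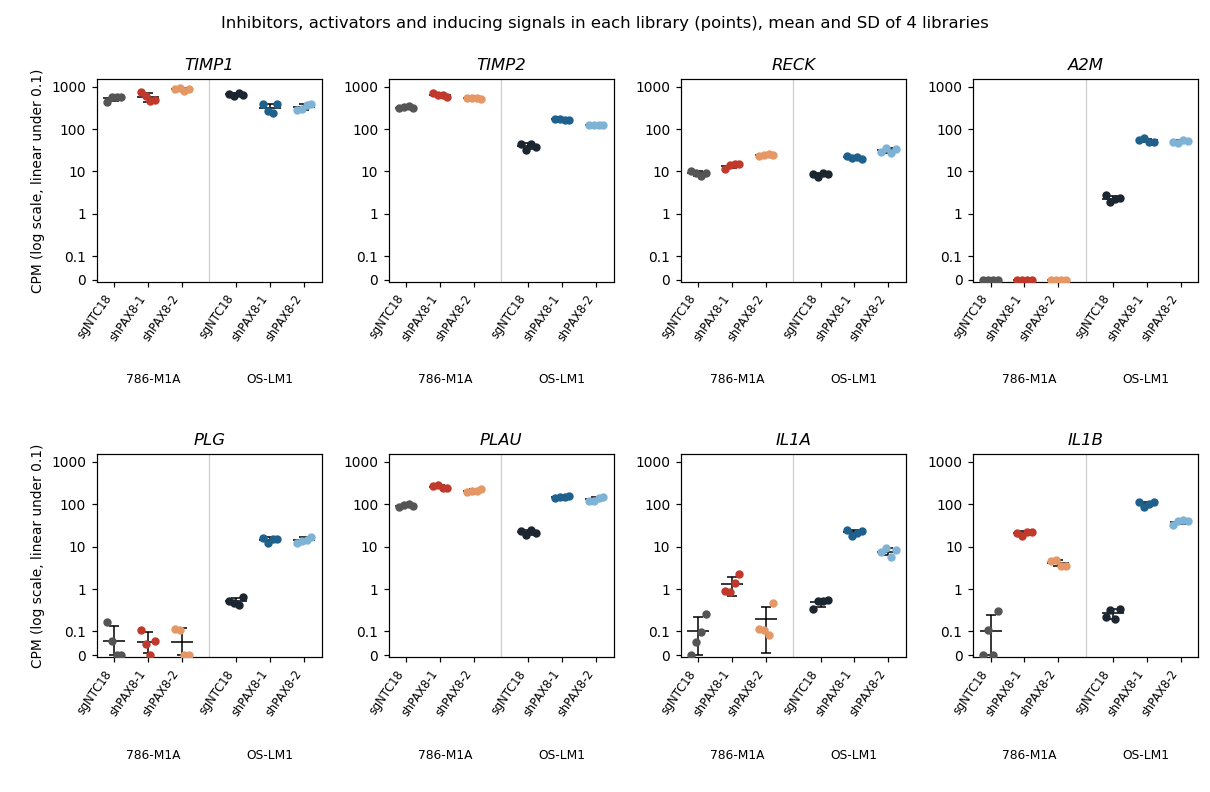
Level of inhibitors (TIMP1, TIMP2, RECK, A2M), genes of proenzyme activation (PLG, PLAU) and inducing signals (IL1A, IL1B) in each library, in CPM after TMM scaling on an axis that is logarithmic above 0.1 and linear below. Points are libraries, and bars give the mean and SD of the 4 libraries of a group. IL1B stood at 86.5 to 116 CPM with shPAX8-1 and at 33.3 to 42.9 CPM with shPAX8-2 in OS-LM1, and A2M was at 0 in 786-M1A.

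For the 3 members with the highest group means, the genes with the most similar pattern were found as those with the smallest root mean square difference in centred log2 CPM over the 24 libraries. For MMP14 these were C2CD2, FNBP1, CLIP2, EPAS1 and AGO2, at 0.186 to 0.205 log2 units, against an SD of 0.723 for MMP14 itself. For MMP2 they were MSX2, FOXC2, KAZALD1, ZNF583 and ZNF572, at 0.383 to 0.464 against an SD of 2.30. For MMP3 they were OLR1, PTPRQ, SERPINB2, PPP2R2B and PRKG1, at 1.12 to 1.43 against an SD of 4.16, the widest distances of the 3. The libraries of a group share their line and construct, and these likenesses are a description.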

How the data were processed

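Poly(A) RNA from 24 libraries of 2 ccRCC lines was sequenced by the authors. Per the labels and the study's methods, reads were mapped to hg38 with Bowtie2 and RSEM (versions not given in the sources used here), and the authors deposited the estimated counts (RSEM's expected count, not normalized) and TPM (scaled for length and depth) per gene for each library. The labels name a KAPA stranded kit and the study's methods a Lexogen kit. Columns of FPKM were not used. The expected counts, 11634418.8 to 52059375.1 per library, were rounded and fitted with edgeR 4.0.16 in R 4.3.3 (TMM, filterByExpr by group, robust quasi-likelihood, 1 fit of 6 groups without covariates), and p-values were adjusted over 15665 genes. Low counts were compared as sums with exact binomial 95% intervals, which cover counting error only. The fit was tested on simulated data. Alternatives were DESeq2 1.42.0 and its size factors, other filters and thresholds, only the libraries compared, a GC trend removed, a replicate block, and left-out libraries. From each list the text names at most the 3 genes with the largest called change in a comparison, besides the TIMPs; the positions and sequences are of GRCh38.p14. Members and lists were chosen with earlier results of these data known. Counting error sets the precision of MMP3 in 786-M1A, MMP9 in OS-LM1, MMP10 and MMP12.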

Additional observations from a re-analysis of the deposited data

Results flagged for a closer look

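The response to depletion (mean of shPAX8-1 and shPAX8-2 against sgNTC18) differed between the lines for 3 members by edgeR's interaction term, given as OS-LM1 minus 786-M1A in log2 units: MMP7 by -2.66 (adjusted p = 1.5e-08), MMP9 by -7.29 (9.68e-11) and MMP14 by -0.62 (0.000466). For MMP1 (3.75), MMP3 (3.63), MMP10 (2.56) and MMP13 (5.64) the same difference was past the threshold but holds the OS-LM1 shPAX8-1 values that chose the members, and is a description. MMP10 left the threshold in 14 of 24 fits without 1 library. MMP13 fell in 786-M1A and rose in OS-LM1, and MMP9 did the reverse.

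A single library stood apart from the other 3 of its group: replicate 3 of shPAX8-2 in 786-M1A held MMP1 at 3.56 CPM against 3.18 to 3.24 CPM. Of 53 groups of members looked at this was the only one, where chance would give 2.65, or about 1 in 20.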

How the results depend on the processing

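The number of members called kept within 1.5 times of its value in 153 of the 159 recomputed counts. The exception was shPAX8-1 against shPAX8-2 in 786-M1A, where the 5 members called became 3 with no filter beyond 1 count, at an adjusted p under 0.01, with only the libraries compared fitted and with the GC trend removed, and 3 to 4 when one library was left out (3 without replicate 4 of shPAX8-1 or replicate 2 of shPAX8-2). The calls lost were those of MMP3 and MMP14, apart from the fit of only the libraries compared, which lost MMP14 and left MMP3 under its filter. With the GC trend removed, directions turned for MMP7 (-0.25), MMP13 (-0.35) and MMP14 (0.12) in that comparison, for MMP2 with shPAX8-1 against sgNTC18 in 786-M1A (0.041) and in OS-LM1 depletion (0.19), and for MMP13 between the depleted lines (-0.073). With replicates 1 and 2 of shPAX8-1 alone MMP7 stood at -0.15 and MMP13 at -0.11 between the hairpins of 786-M1A and MMP14 lost its call (-0.08, adjusted p = 0.676), and with replicates 3 and 4 alone MMP1 stood at 0.22 against sgNTC18 and MMP3 lost its call between the hairpins (0.70, adjusted p = 0.217). Leaving out single libraries turned the sign of values near 0: in 786-M1A MMP7 (-0.18 to 0.26) and MMP13 (-0.15 to 0.24) between the hairpins, MMP1 with shPAX8-1 (-0.17 to 0.051) and MMP10 with shPAX8-2 (-0.21 to 0.74) against sgNTC18, and MMP10 between the lines in sgNTC18 (-1.16 to 0.018). The cause of these changes was not tested. A replicate block turned MMP13 between the hairpins of 786-M1A to -0.0033 and lost the interaction of MMP10 (2.49 log2 units, adjusted p = 0.0768), without changing any other call of a member. Deviations of equally numbered libraries of a line correlated at 0.003 on average (-0.32 to 0.27, 6 of 24 pairs over 0.1). Of the pairs of a line with unlike numbers 11 of 72 were over 0.1. The average cannot settle whether the numbers pair libraries. Between the hairpins of 786-M1A equally numbered pairs stood at 0.22, 0.15, 0.27 and 0.037, and unlike-numbered pairs at -0.36 to 0.31. Depth limits MMP12 and MMP10 in 786-M1A, MMP10 in OS-LM1 with sgNTC18 and shPAX8-2, and MMP9 in OS-LM1 with either hairpin.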
